A study of Mus musculus with 6 samples.

Results

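Synaptic vesicle and release genes were followed in 6 mouse brain tumours. The group holds 39 genes, chosen by name for the proteins that fill, dock, fuse and recover transmitter vesicles at the nerve terminal. The choice was made with earlier results of these data known, so the counts below are not those of an independent list. In the whole table, 9998 genes had a tested probe. Of the 39, 36 had at least 1 probe under their symbol, and 31 had a probe called present (detection p-value below 0.05) on 3 or more arrays. These 31 genes were covered by 47 tested probes. No probe with the symbol Sv2c, Sncb or Unc13a was analysed here. The single probes of Snap25, Synpr, Rab3c and Bsn were detected on 0 of 6 arrays, and neither Rims1 probe reached 3 arrays, so no level is given for these 5 genes.

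A nerve terminal stores transmitter in small vesicles. Transporters in the vesicle membrane load glutamate or GABA, the active zone docks and primes the vesicle, and SNARE proteins of vesicle and plasma membrane zip together when synaptotagmin binds calcium. The membrane is then retrieved by endocytosis and the SNAREs are pulled apart for another round. These genes are best known as genes of neurons, and several have close relatives that serve membrane traffic in most cell types.

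The study compared tumours grown from transplanted cells of the genotype Olig2cre/cre;p53fl/fl;hEGFRvIII (3 tumours) and of the genotype Olig2cre/+;p53fl/fl;hEGFRvIII (3 tumours), taken when the animals showed neurological symptoms, to ask how tumours with and without an intact allele of the oligodendrocyte-lineage transcription factor Olig2 differ in gene expression. In Olig2cre/cre cells both Olig2 alleles carry cre, and in Olig2cre/+ cells 1 allele does. Both groups share floxed p53 alleles, human EGFRvIII, a shortened EGF receptor of glioma that signals without ligand, and SCID hosts, which lack mature T and B cells. The labels give ages of 45, 50 and 47 days for tumours 1, 2 and 3 of each genotype, with the assignment of 45 and 47 uncertain because the authors' second table exchanges numbers 1 and 3. Whether separate cell isolates gave rise to the 3 tumours of a genotype is not in the labels, so the p-values speak of the spread among these tumours, which may be technical, and no scan or slide batch is given. Each sample was RNA of a whole tumour with whatever host brain it held, so fewer cells of a type and less RNA per cell cannot be told apart.

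Between 13715 and 14811 of 25697 probes were detected per array, and 4.42% of the 14606 tested probes were called (limma, adjusted p under 0.05), 1.77% lower and 2.65% higher in the Olig2cre/cre tumours. Values below are log2 normalized intensities unless called a difference or a fold, and differences are Olig2cre/cre minus Olig2cre/+ with the standard error (SE) that limma moderates across probes. Olig2 itself read 6.41, 5.86 and 6.44 in the Olig2cre/cre tumours, against 7.76, 7.85 and 7.13 in the Olig2cre/+ tumours, and its difference of -1.34 had an adjusted p of 0.0555. Over tested probes, Olig2cre/cre tumour 3 correlated with Olig2cre/cre tumours 1 and 2 at 0.886 and 0.928, and with Olig2cre/+ tumours 1, 2 and 3 at 0.941, 0.935 and 0.914, so it lay closer to 2 tumours of the other genotype than to either of its own. Results that change without it are given both ways.

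All 31 measured genes had a lower mean in the Olig2cre/cre tumours, as had 49.8% of all genes. The differences ran from -4.79 for Slc17a6 to -0.23 for Cplx2, with a median of -2.07, beside a median of 0.00 over all 9998 genes. The difference was below -1 for 27 of the 31 and below -2 for 16, against 11.9% and 4.37% of all genes. No single gene passed the threshold (limma, adjusted p under 0.05 over all tested probes): 0 of 31 were called, where 1.95% of all genes were called lower and 2.83% higher. At an unadjusted p under 0.05, 22 of 31 were lower and 0 higher, beside 13.8% of all genes lower and 12.2% higher. Every Olig2cre/cre tumour lay below every Olig2cre/+ tumour for 15 of the 31, against 16.4% of all genes. The smallest adjusted p was 0.0753, for Syngr3. With the replicate number as a block in the limma fit, 17 of the 31 were called lower. More probes were called over the whole table too. The labels give same-numbered tumours the same age but name no pairs, and the closing section gives the calls over the whole table. Of the 31, 23 were detected on all 6 arrays, and the other 8 were detected on all 3 Olig2cre/+ arrays but not on every Olig2cre/cre array, so the filter admitted those 8 through the group in which they were higher.

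The genes varied together from tumour to tumour, and most of the spread lay among the Olig2cre/cre tumours. The mean of the 31 genes, relative to the Olig2cre/+ mean, was -3.64, -2.03 and -0.65 in Olig2cre/cre tumours 1, 2 and 3, against -0.63, -0.10 and 0.73 in Olig2cre/+ tumours 1, 2 and 3. Olig2cre/cre tumour 3 thus lay level with Olig2cre/+ tumour 1. The median standard deviation within the group was 1.44 for the Olig2cre/cre tumours and 0.63 for the Olig2cre/+ tumours, while over all genes it was 0.40 and 0.30. Olig2cre/cre tumour 1 was the lowest of the 6 for 28 of the 31 genes, against 23.2% of all genes, and Olig2cre/+ tumour 3 was the highest for 28, against 21.5% of all genes. For 25 of the 31 genes the level was lowest in tumour 1, intermediate in tumour 2 and highest in tumour 3 of the Olig2cre/cre group, an order found in 17% of all genes.

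**Figure D1:**
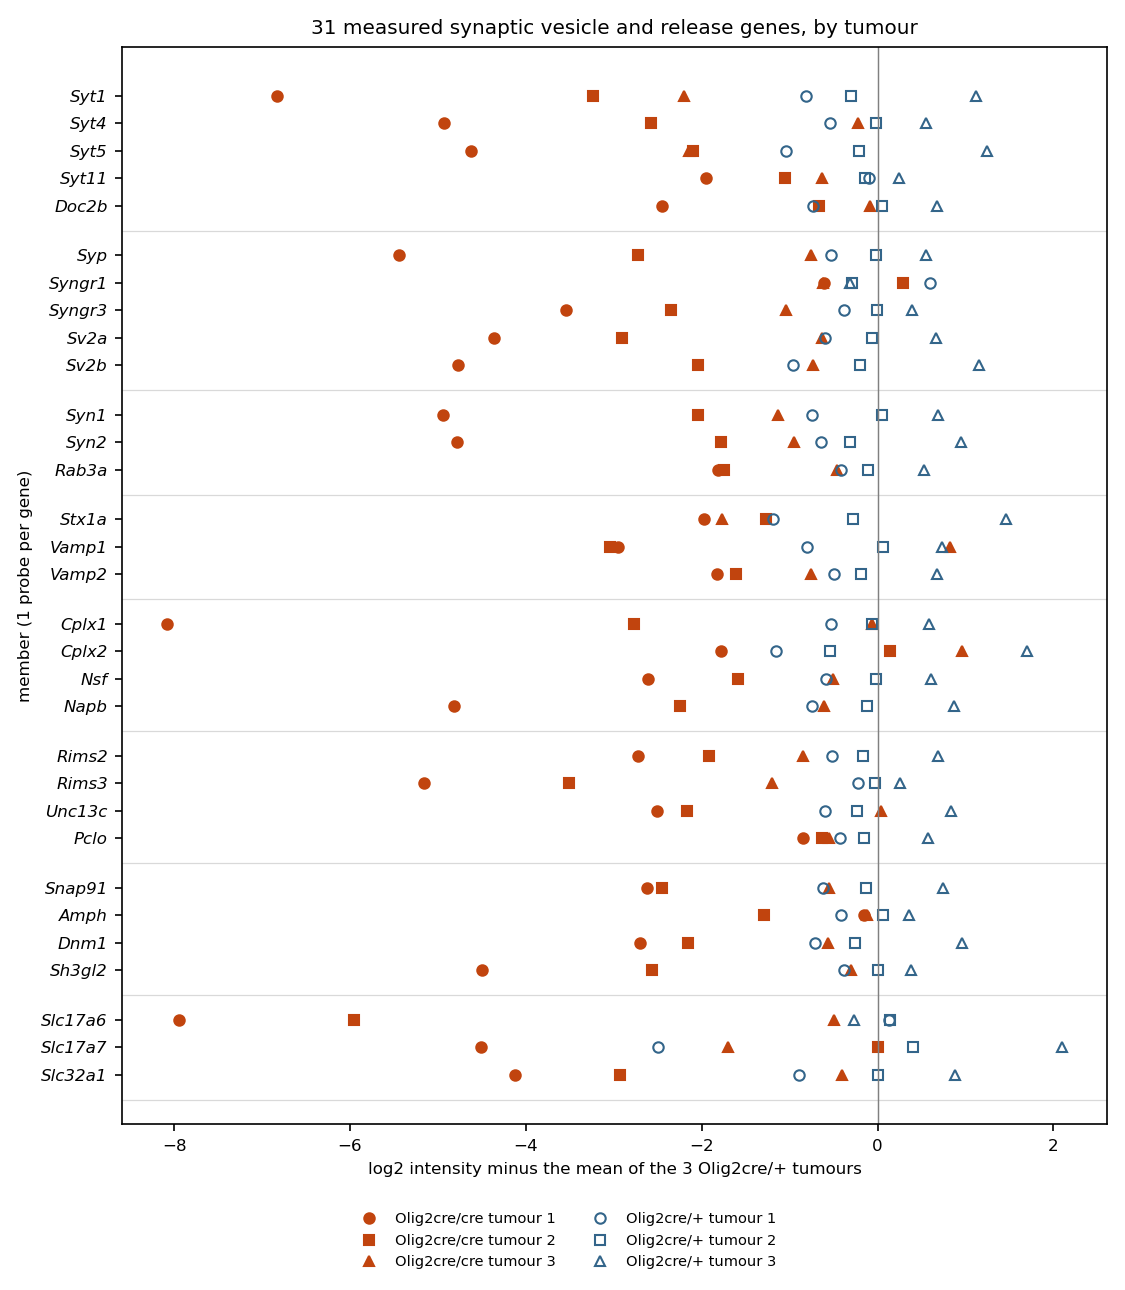
Log2 intensity of each of the 31 measured genes (rows, in blocks by role) in each tumour, relative to the mean of the 3 Olig2cre/+ tumours (x axis); filled symbols are Olig2cre/cre tumours and open symbols Olig2cre/+ tumours, with 1 point per array. Olig2cre/cre tumour 1 is the leftmost point for 28 of the 31 genes, and Olig2cre/cre tumour 3 lies within the Olig2cre/+ range for 14.

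The calls depended on Olig2cre/cre tumour 3. It lay within the Olig2cre/+ range for 14 of the 31 genes (45.2%, near the 39% of all genes), below it for 16 (51.6%, against 31.3% of all genes) and above it for 1. Without this tumour, 20 of the 31 genes were called lower and 0 higher (limma, adjusted p under 0.05), where 7.87% of all genes were called lower and 5.96% higher, and the median difference was -2.94. The 20 genes came from all 8 role groups, with 2 or 3 from each. By the probe that stands for each gene, 15 of the 20 were detected in both other Olig2cre/cre tumours, 3 (Syt1, Dnm1 and Slc17a6) in 1 and 2 (Unc13c and Snap91) in 0. The fit without it compares only 2 Olig2cre/cre tumours with 3 Olig2cre/+ tumours. Olig2cre/cre tumour 3 was the highest of its group for 27 of the 31 genes, so leaving it out had to widen those differences. Leaving out any other single tumour gave 0 of 31 called.

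**Figure D2:**
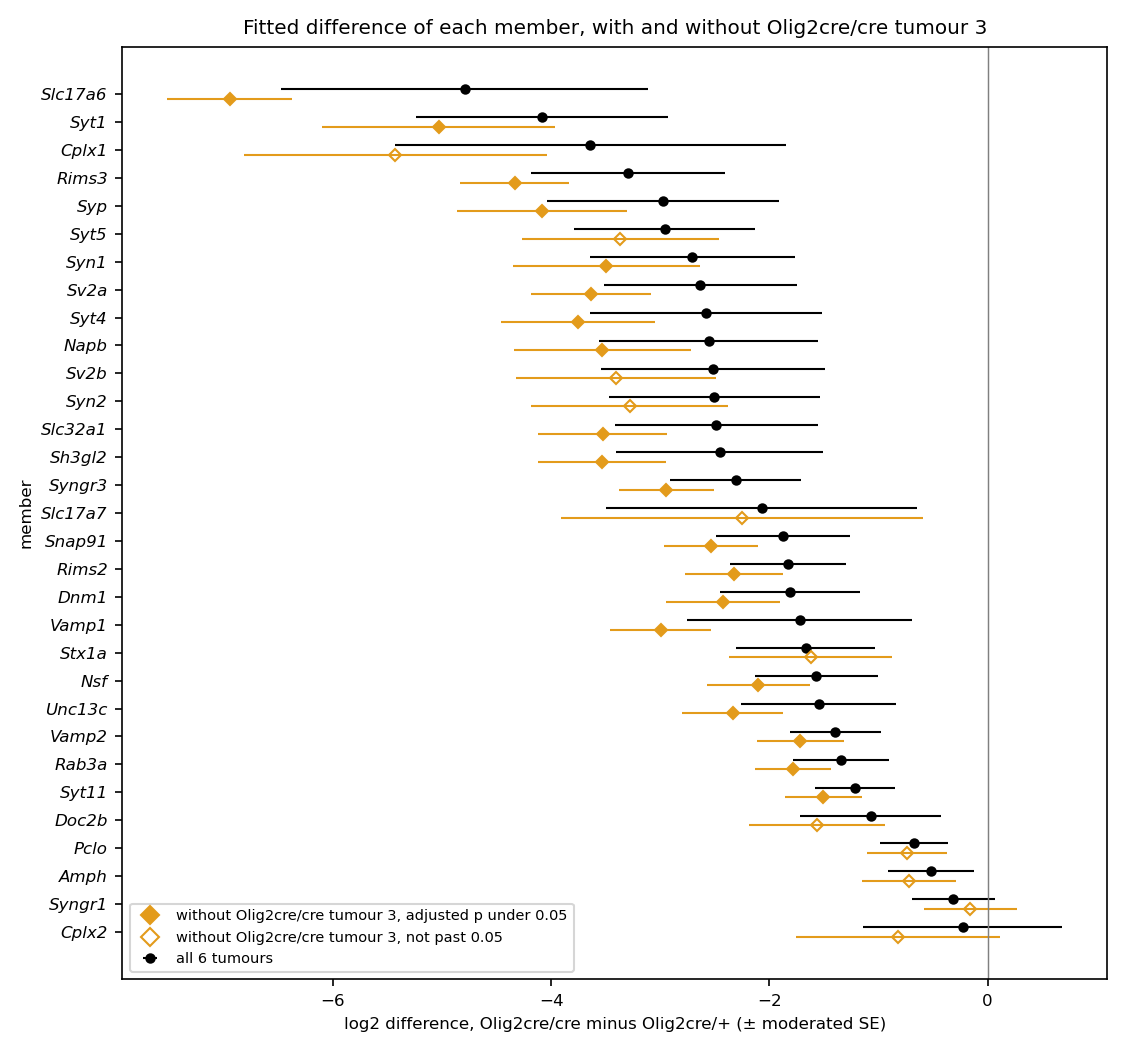
Fitted log2 difference (Olig2cre/cre minus Olig2cre/+, x axis) with its moderated SE for each gene, from all 6 tumours (black) and without Olig2cre/cre tumour 3 (orange, filled where the adjusted p was under 0.05). No black point passed the threshold, and 20 orange points did; the orange points of Unc13c and Snap91 rest on signals not detected in Olig2cre/cre tumours 1 and 2.

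Among the calcium sensors, Syt1, the synaptotagmin that triggers fast release, read 4.87, 8.46 and 9.50 in the Olig2cre/cre tumours, against 10.88, 11.39 and 12.82 in the Olig2cre/+ tumours. The groups did not overlap, and the difference was -4.09 ± 1.16 (SE, n = 3 each, adjusted p = 0.0884). Syt1 was not detected on the array of Olig2cre/cre tumour 1, and with that value raised to the lowest detected signal the difference was -3.87. Syt5, a vesicle synaptotagmin, read 4.58, 7.11 and 7.06 in the Olig2cre/cre tumours, against 8.17, 9.01 and 10.46 in the Olig2cre/+ tumours (difference -2.96 ± 0.83, adjusted p = 0.0865). Syt5 too was not detected on the array of Olig2cre/cre tumour 1, and its difference was -2.65 with that value raised. For Syt1 and Syt5, Olig2cre/cre tumour 3 itself differed from the Olig2cre/+ mean by -2.20 and -2.15, and these were the 2 genes of the 31 for which that tumour lay more than 2 below it. Syt11, a synaptotagmin that does not bind calcium, read 12.60, 13.50 and 13.92 in the Olig2cre/cre tumours against 14.45, 14.41 and 14.79 in the Olig2cre/+ tumours, a smaller difference of -1.22 ± 0.37 (adjusted p = 0.101) again without overlap. Its other probes gave -1.81 and -1.49. Syt4, another synaptotagmin, differed by -2.58 and Doc2b, a high-affinity calcium sensor, by -1.07, with overlapping groups for both. Without Olig2cre/cre tumour 3, Syt1, Syt4 and Syt11 passed (-5.03, -3.75 and -1.51, adjusted p = 0.0296, 0.0208 and 0.0394). With its undetected value raised, Syt1 differed by -4.71 there, and that value was not tested.

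Among the proteins of the vesicle membrane, Syngr3, a synaptogyrin, read 8.32, 9.51 and 10.81 in the Olig2cre/cre tumours, against 11.47, 11.84 and 12.25 in the Olig2cre/+ tumours. That is a 4.96-fold lower level (difference -2.31 ± 0.60, adjusted p = 0.0753), with no overlap. Sv2a, a vesicle glycoprotein that binds synaptotagmin, read 6.99, 8.46 and 10.73 in the Olig2cre/cre tumours against 10.76, 11.30 and 12.02 in the Olig2cre/+ tumours (-2.63 ± 0.88, adjusted p = 0.124), and the highest Olig2cre/cre value nearly met the lowest Olig2cre/+ value. Syp, synaptophysin, the classic vesicle marker, read 7.97, 10.68 and 12.65 in the Olig2cre/cre tumours against 12.88, 13.40 and 13.96 in the Olig2cre/+ tumours (-2.98 ± 1.06, adjusted p = 0.140). Sv2b differed by -2.52 with overlapping groups. Syngr1 was the exception in this block: its brightest probe differed by -0.31 ± 0.38 (adjusted p = 0.661), a second probe by 0.00, and 2 dimmer probes by -2.25 and -2.69 with no overlap (adjusted p = 0.117 and 0.0898), so its probes disagreed. Without Olig2cre/cre tumour 3, Syngr3, Sv2a and Syp passed (-2.94, -3.63 and -4.09, adjusted p = 0.0111, 0.0117 and 0.0218).

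On the vesicle surface, Syn1 and Syn2 encode synapsins, which tether vesicles in the reserve pool, and Rab3a encodes the GTPase that guides vesicles to the active zone. Syn1 read 7.30, 10.19 and 11.11 in the Olig2cre/cre tumours, against 11.50, 12.29 and 12.93 in the Olig2cre/+ tumours (-2.71 ± 0.94, adjusted p = 0.133), and its other probe gave -2.74. Syn2 differed by -2.51 ± 0.97 (adjusted p = 0.164). Rab3a read 11.18, 11.24 and 12.53 in the Olig2cre/cre tumours against 12.57, 12.88 and 13.51 in the Olig2cre/+ tumours, a 2.53-fold lower level (-1.34 ± 0.44, adjusted p = 0.119). For all 3 genes every Olig2cre/cre tumour lay below every Olig2cre/+ tumour, and the Rab3a difference was less than that of either synapsin. Without Olig2cre/cre tumour 3, Syn1 and Rab3a passed (-3.49 and -1.78, adjusted p = 0.0444 and 0.0235), and Syn2 did not (-3.28, adjusted p = 0.0621).

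Neuronal genes are often kept silent outside neurons by the repressor REST, which binds the RE1 element, and the Syn1 promoter is the textbook case of an RE1 site. The promoter windows of the 39 genes (300 bases around the start, mostly upstream, RefSeq, GRCm38.p6) were searched on both strands for the left arm of RE1 (TTCAGCACC), the right arm (GGACAGCG) and the cAMP response element (TGACGTCA). For 32 of the 39 genes, 40 windows were found. The left arm stood in 2 of these 40 windows, those of Syn1 and Unc13a, against 0.371% of 32851 windows of all genes. The right arm stood in 1 of 40, that of Unc13a, against 1.26% of windows. The cAMP element stood in 2 of 40, those of Syn1 and Sh3gl2, against 1.79%. The Syn1 RE1 site was known beforehand and no Unc13a probe was analysed here. Any part of these elements in the shared variation of the genes was not tested. The windows of the measured genes with a match are shown 5′ to 3′ on the gene's strand, at chrX:20920869-20921168 (minus strand) for Syn1 and chr4:85205206-85205505 (plus strand) for Sh3gl2, the endophilin gene described below. Capitals mark the matches, TTCAGCACC then TGACGTCA in Syn1 and TGACGTCA in Sh3gl2, which do not overlap.
Syn1: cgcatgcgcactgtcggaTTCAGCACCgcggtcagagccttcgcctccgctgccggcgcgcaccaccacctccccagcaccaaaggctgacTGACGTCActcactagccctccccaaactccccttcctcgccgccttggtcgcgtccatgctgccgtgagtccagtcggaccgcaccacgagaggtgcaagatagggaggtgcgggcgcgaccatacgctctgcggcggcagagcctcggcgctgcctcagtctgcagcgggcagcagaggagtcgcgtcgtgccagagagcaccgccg
Sh3gl2: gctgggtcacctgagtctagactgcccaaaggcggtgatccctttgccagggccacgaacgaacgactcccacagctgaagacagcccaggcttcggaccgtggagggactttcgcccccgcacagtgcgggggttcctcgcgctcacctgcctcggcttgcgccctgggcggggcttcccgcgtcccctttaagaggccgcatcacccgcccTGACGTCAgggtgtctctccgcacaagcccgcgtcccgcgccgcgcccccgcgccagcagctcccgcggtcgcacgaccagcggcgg
A match is a description of the letters only, and binding was not measured.

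Of the SNAREs, which form the fusion complex, Vamp2, the main vesicle SNARE of the forebrain, read 10.87, 11.09 and 11.94 in the Olig2cre/cre tumours, against 12.20, 12.51 and 13.37 in the Olig2cre/+ tumours (-1.39 ± 0.41, adjusted p = 0.0968), a 2.63-fold lower level with no overlap. Stx1a, its plasma membrane partner, read 8.98, 9.69 and 9.20 in the Olig2cre/cre tumours against 9.77, 10.68 and 12.42 in the Olig2cre/+ tumours (-1.67 ± 0.64, adjusted p = 0.161). Olig2cre/cre tumour 3 was as low as the other Olig2cre/cre tumours for Stx1a, and the wide spread lay among the Olig2cre/+ tumours. Vamp1, a vesicle SNARE prominent in the brainstem and spinal cord, read 5.95, 5.85 and 9.72 in the Olig2cre/cre tumours against 8.10, 8.97 and 9.63 in the Olig2cre/+ tumours (-1.72 ± 1.03, adjusted p = 0.353). It was the 1 gene of the 31 for which Olig2cre/cre tumour 3 exceeded every Olig2cre/+ tumour. A second Vamp1 probe gave -1.54, while 2 dimmer probes gave 0.00 and -0.21, so these probes disagreed. Without Olig2cre/cre tumour 3, Vamp2 and Vamp1 passed (-1.72 and -2.998, adjusted p = 0.0386 and 0.0123), and Stx1a did not (-1.62, adjusted p = 0.211).

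Genes that regulate or recycle the SNARE complex included the widest range. Cplx1, a complexin that clamps and promotes fusion, read 5.69, 10.997 and 13.71 in the Olig2cre/cre tumours, against 13.24, 13.71 and 14.36 in the Olig2cre/+ tumours (-3.64 ± 1.79, adjusted p = 0.260). Relative to the Olig2cre/+ mean it was -8.08 in Olig2cre/cre tumour 1 and -0.07 in tumour 3. Its paralogue Cplx2 read 7.81, 9.72 and 10.54 in the Olig2cre/cre tumours against 8.43, 9.04 and 11.28 in the Olig2cre/+ tumours, with overlapping groups and a difference of -0.23 ± 0.91 (adjusted p = 0.906). The Cplx2 difference changed sign, to 0.55, without Olig2cre/cre tumour 1, and to 0.62 without Olig2cre/+ tumour 3. Nsf, the ATPase that takes SNARE complexes apart, read 10.60, 11.62 and 12.71 in the Olig2cre/cre tumours against 12.62, 13.20 and 13.82 in the Olig2cre/+ tumours (-1.57 ± 0.56, adjusted p = 0.141). Napb, its neuronal adaptor beta-SNAP, read 7.20, 9.76 and 11.41 in the Olig2cre/cre tumours against 11.26, 11.89 and 12.89 in the Olig2cre/+ tumours (-2.56 ± 1.00, adjusted p = 0.170). In both, only Olig2cre/cre tumour 3 reached into the Olig2cre/+ range, and both passed without it (-2.10 and -3.53, adjusted p = 0.0342 and 0.0367).

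At the active zone, Rims3, a RIM scaffold protein, read 7.12, 8.77 and 11.07 in the Olig2cre/cre tumours, against 12.05, 12.25 and 12.54 in the Olig2cre/+ tumours, a 9.80-fold lower level (-3.29 ± 0.89, adjusted p = 0.0817). Its Olig2cre/+ values lay within 0.49 of each other, and Olig2cre/cre tumour 3 was at -1.21 relative to their mean. Rims2, a RIM that links vesicles to calcium channels, read 6.35, 7.16 and 8.23 in the Olig2cre/cre tumours against 8.56, 8.91 and 9.76 in the Olig2cre/+ tumours (-1.83 ± 0.53, adjusted p = 0.0914), also with no overlap. Unc13c, a Munc13 priming factor known from the cerebellum, differed by -1.55 and was detected on 1 of the 3 Olig2cre/cre arrays. With its undetected values raised, it differed by -1.14. Pclo, the giant scaffold piccolo, differed by -0.68 ± 0.31 (adjusted p = 0.231) by its brighter probe; its other probe was not detected in any Olig2cre/cre tumour and was at least 1.88-fold lower there (adjusted p = 0.0523). Without Olig2cre/cre tumour 3, Rims3 and Rims2 passed (-4.34 and -2.32, adjusted p = 0.00643 and 0.0227). Unc13c also passed (adjusted p = 0.0241), but it was not detected in Olig2cre/cre tumours 1 and 2, so there it was at least 3.30-fold lower.

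Of the endocytosis genes, Snap91, the clathrin adaptor AP180, read 4.68, 4.84 and 6.75 in the Olig2cre/cre tumours, where it was detected on 1 of 3 arrays, against 6.68, 7.17 and 8.05 in the Olig2cre/+ tumours (-1.88 ± 0.62, adjusted p = 0.119, and -1.43 with undetected values raised). Its dimmer probe was detected on 2 of the 3 Olig2cre/cre arrays and gave -1.51 with no overlap (adjusted p = 0.0944). Dnm1, the neuronal dynamin that pinches vesicles off, read 4.86, 5.41 and 6.99 in the Olig2cre/cre tumours against 6.85, 7.31 and 8.53 in the Olig2cre/+ tumours (-1.81 ± 0.64, adjusted p = 0.138, and -1.59 with its undetected value raised), and its other probe gave -1.82. Sh3gl2, endophilin A1, read 8.71, 10.65 and 12.91 in the Olig2cre/cre tumours against 12.83, 13.22 and 13.60 in the Olig2cre/+ tumours (-2.46 ± 0.95, adjusted p = 0.164). By the brightest probe of each of the 3 genes, Olig2cre/cre tumour 3 lay in the Olig2cre/+ range while tumours 1 and 2 lay below it. By the dimmer Snap91 probe tumour 3 lay below that range too. Without tumour 3 all 3 passed by their brightest probes (adjusted p = 0.0159, 0.0305 and 0.0147). In that fit Sh3gl2 differed by -3.53 and Dnm1 by -2.43. Dnm1 was not detected in Olig2cre/cre tumour 1, and with that value raised it differed by -2.10, which was not tested. By its brighter probe, Snap91 was not detected in Olig2cre/cre tumours 1 and 2 and was at least 3.67-fold lower there. Amph, amphiphysin, differed by -0.52 ± 0.39 (adjusted p = 0.460), and its 2 other probes were not detected often enough to be tested.

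The vesicular transporters, which mark the transmitter a neuron releases, followed different orders among the tumours. Slc17a6, the glutamate transporter VGLUT2 of thalamic, hypothalamic and brainstem neurons, read 4.86, 6.85 and 12.31 in the Olig2cre/cre tumours, against 12.92, 12.94 and 12.53 in the Olig2cre/+ tumours. The groups did not overlap, but relative to the Olig2cre/+ mean the Olig2cre/cre tumours were at -7.94, -5.95 and -0.49, and the difference of -4.79 ± 1.68 did not pass (adjusted p = 0.135). Without Olig2cre/cre tumour 3 it passed (-6.95, adjusted p = 0.00280). With the undetected value of Olig2cre/cre tumour 1 raised to the lowest detected signal of its array, the difference was -6.62, a 98.2-fold lower level. That raised value was not tested. Slc17a7, VGLUT1 of cortical and hippocampal neurons, read 4.76, 9.28 and 7.57 in the Olig2cre/cre tumours against 6.77, 9.67 and 11.37 in the Olig2cre/+ tumours (-2.07 ± 1.43, adjusted p = 0.419). Olig2cre/cre tumour 2 was therefore far below the Olig2cre/+ tumours for Slc17a6 but at their mean for Slc17a7, while tumour 3 was close to them for Slc17a6 and at -1.70 relative to their mean for Slc17a7, and the Olig2cre/+ tumours spread over more than 4 log2 units for Slc17a7. Slc32a1, the GABA and glycine transporter VGAT, read 8.47, 9.66 and 12.20 in the Olig2cre/cre tumours against 11.71, 12.61 and 13.48 in the Olig2cre/+ tumours (-2.49 ± 0.93, adjusted p = 0.155, and -3.53, adjusted p = 0.0156, without Olig2cre/cre tumour 3). Slc17a6 and Slc17a7 were not detected on the array of Olig2cre/cre tumour 1, and Slc32a1 was detected on all 6 arrays. With the undetected values raised, the differences over all 6 tumours were -4.575 for Slc17a6 and -1.82 for Slc17a7.

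**Figure D3:**
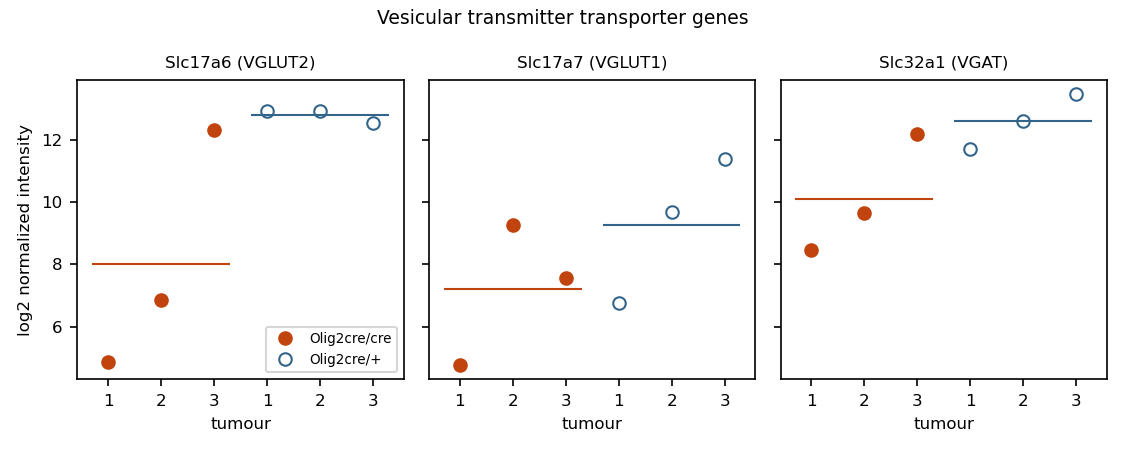
Log2 normalized intensity (y axis) of the 3 vesicular transporter genes in each tumour (1 point per array), with a line at each group's mean. Slc17a6 separates Olig2cre/cre tumours 1 and 2 (4.86 and 6.85) from the other 4 tumours (12.31 to 12.94), while for Slc17a7 Olig2cre/cre tumour 2 (9.28) lies among the Olig2cre/+ tumours.

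A wider list of 89 further presynaptic genes was read beside the 39. Leaving aside its widely expressed relatives of members, 67 were listed and 41 measured, 35 with a lower mean in the Olig2cre/cre tumours. Of the 41, 1 was called lower and 0 higher, beside 1.95% and 2.83% of all genes. By an unadjusted limma p under 0.05, 21 were lower and 1 higher, beside 13.8% and 12.2% of all genes. For 18 of the 41, every Olig2cre/cre tumour lay below every Olig2cre/+ tumour (against 16.4% of all genes). The median difference was -0.78. The called gene was Sh3gl3, endophilin A3, which fell to 5.91, 6.69 and 7.76 in the Olig2cre/cre tumours, against 9.71, 9.39 and 9.10 in the Olig2cre/+ tumours (-2.62 ± 0.47, limma adjusted p = 0.0340). Its call was lost without Olig2cre/cre tumour 2 (adjusted p = 0.0997) and without Olig2cre/+ tumour 1, 2 or 3 (adjusted p = 0.105, 0.153 and 0.103). The Sh3gl3 call was also lost with no detection filter (adjusted p = 0.0726), and its difference ranged from -3.10 to -1.67 over the settings tried. Others of small p were Syt13, an atypical synaptotagmin (-2.28 ± 0.54, adjusted p = 0.0628), Ppfia3, the scaffold liprin-alpha 3 (-2.13 ± 0.53, adjusted p = 0.0680), Snap47, a SNAP-25 relative (-1.04 ± 0.29, adjusted p = 0.0846), Scamp5, a vesicle membrane protein (-1.11 ± 0.31, adjusted p = 0.0860), and Cadps2, a priming factor of dense-core vesicles (-2.50 ± 0.71, adjusted p = 0.0902). Against them stood Syt12, another synaptotagmin, which read 9.54, 8.71 and 8.53 in the Olig2cre/cre tumours against 5.87, 6.99 and 7.72 in the Olig2cre/+ tumours, a difference of 2.07 ± 0.51 (adjusted p = 0.0666) with no overlap. The largest difference of the wider list was that of Dnajc6, the uncoating factor auxilin, at -3.44 ± 1.29 (adjusted p = 0.155).

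The widely expressed relatives were divided in direction. Of 22 listed, 20 were measured, 11 with a lower and 9 with a higher mean in the Olig2cre/cre tumours. Their median difference was -0.08, and 0 were called (limma), beside 1.95% of all genes lower and 2.83% higher. By an unadjusted limma p under 0.05, 3 of the 20 were lower and 5 higher, beside 13.8% and 12.2% of all genes. The mean of the 20 relative to the Olig2cre/+ mean was 0.38, -0.07 and 0.11 in Olig2cre/cre tumours 1, 2 and 3, where the 31 members had -3.64, -2.03 and -0.65. The lowest were Napg, the gamma relative of the SNAP adaptor Napb, at -1.33 ± 0.44 with no overlap (adjusted p = 0.122), the endosomal syntaxin Stx12 at -0.82 ± 0.29 (adjusted p = 0.135) and the trans-Golgi SNARE Vamp4 at -0.81 ± 0.31 (adjusted p = 0.167). Within a family the relatives differed among themselves: beside -2.56 for Napb stood -1.33 for Napg and -0.19 for Napa, and beside -1.39 for Vamp2 stood -0.81 for Vamp4, -0.15 for Vamp7, 0.26 for Vamp3 and 1.93 for Vamp8. Beside -1.67 for Stx1a, 6 other syntaxins ran from -0.82 for Stx12 to 0.56 for Stx4a. Dnm2 differed by 0.97 beside -1.81 for Dnm1, Syngr2 by 1.16 beside -2.31 for Syngr3, Sh3gl1 by 0.31 beside -2.46 for Sh3gl2, and Sypl by 0.33 beside -2.98 for Syp. Differences between a member and its relative were not tested, and the sign of Napa (without Olig2cre/cre tumour 2 or Olig2cre/+ tumour 3) and Vamp3 (without Olig2cre/+ tumour 3) changed with the tumours used. The relatives with the smallest p were Vamp8, an endosomal SNARE, at 1.93 ± 0.42 (adjusted p = 0.0516), Sh3glb1, an endophilin B, at 0.91 ± 0.24 (adjusted p = 0.0766), and Syngr2 (adjusted p = 0.0784).

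**Figure D4:**
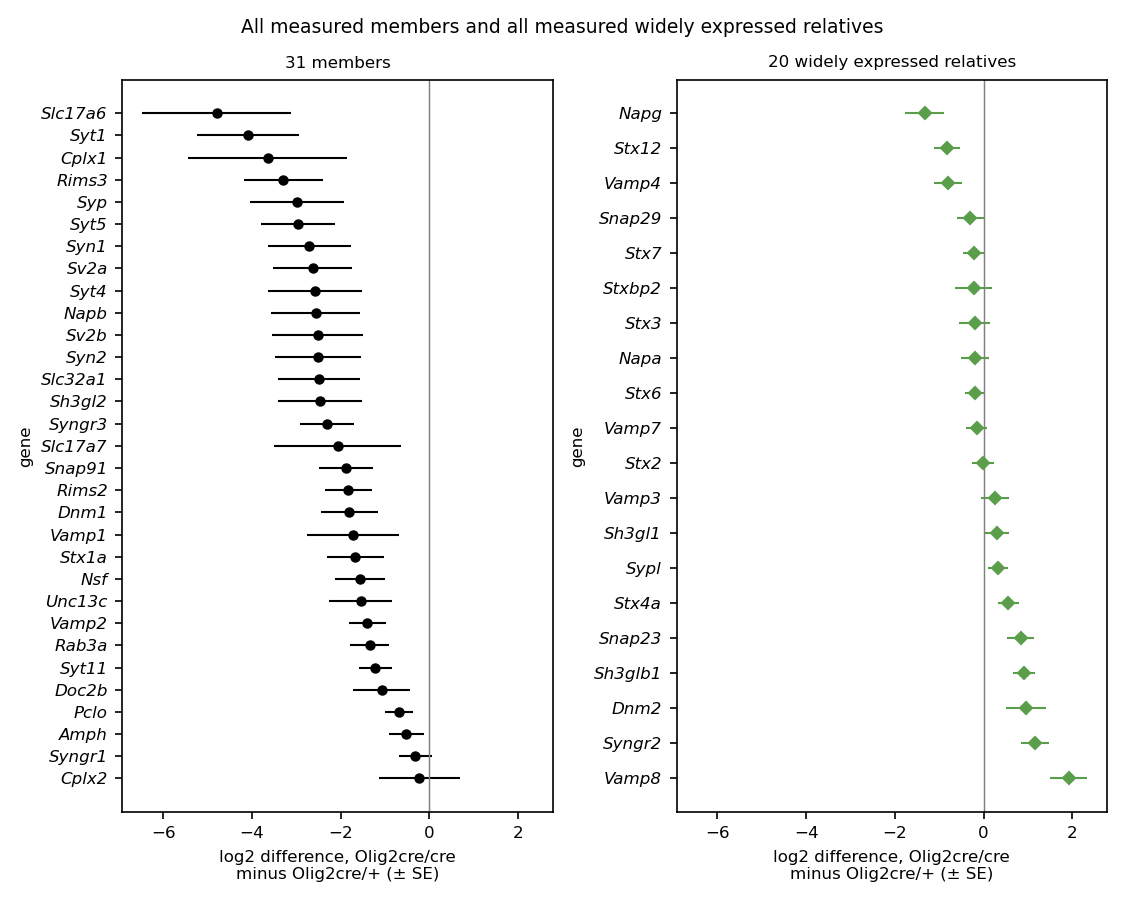
Log2 difference (Olig2cre/cre minus Olig2cre/+, x axis) with its moderated SE for all 31 measured members (left, black) and all 20 measured widely expressed relatives (right, green), each sorted by difference, n = 3 tumours per group. The members run from -4.79 to -0.23 and the relatives from -1.33 to 1.93, so the ranges overlap.

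Markers of several cell types differed along the same tumours. Of 16 neuron cell body and axon markers, none of them a release gene, 14 were measured. Of these, 13 had a lower mean in the Olig2cre/cre tumours and 1 was called lower, beside 1.95% of all genes. The median difference was -2.17. The mean of the 14 markers relative to the Olig2cre/+ mean was -3.27, -2.48 and -0.53 in Olig2cre/cre tumours 1, 2 and 3, close to the -3.64, -2.03 and -0.65 of the 31 genes. The summed linear intensity of the markers was 33735, 18064 and 40259.9 in Olig2cre/cre tumours 1, 2 and 3, and 48072 to 86791 in the Olig2cre/+ tumours. By this sum Olig2cre/cre tumour 2 was the lowest, where tumour 1 was by the log2 means. That order of the sums came from 1 marker, Thy1, described below. Thy1 read 14.60 in Olig2cre/cre tumour 1 and 11.24 in tumour 2. The markers were detected in 12, 12 and 14 of 14 cases in Olig2cre/cre tumours 1, 2 and 3 and in all 14 in each Olig2cre/+ tumour. The marker differences ran from -3.76 for Snhg11, a neuronal noncoding RNA, to 0.24 for Celf4, a neuronal RNA-binding protein. The 2 markers named for the brightest mean probe signal over the 6 arrays, which is no ranking of RNA levels, were Map2, a dendritic microtubule protein (difference -0.75), and Thy1, a surface protein of neurons and T cells (-0.15), which read 14.60 in Olig2cre/cre tumour 1, its highest value of the 6, and the called marker was the axonal protein Mapt, tau (-2.37, adjusted p = 0.0480). The summed intensity of the 31 release genes was 17292 to 93760.1 in the Olig2cre/cre tumours and 102623 to 205309 in the Olig2cre/+ tumours. The part of neuron content in the lower means of the release genes was not tested.

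The 9 measured oligodendrocyte markers of 11 had means of -4.94, -4.05 and -1.01 in Olig2cre/cre tumours 1, 2 and 3 (summed intensity 2566 to 49911 in Olig2cre/cre tumours, 62946 to 71641 in Olig2cre/+ tumours), with 9 of 9 lower. Of the 9, 2 were called lower, beside 1.95% of all genes. The 7 measured hypothalamic neuropeptides of 10 had means of -5.28, -4.97 and -4.30 in Olig2cre/cre tumours 1, 2 and 3 (summed intensity 279 to 2714 in Olig2cre/cre tumours, 14947 to 25446 in Olig2cre/+ tumours). Only 2, 1 and 2 of the 7 were detected in those tumours, so these means rest largely on undetected signals. Of the 7, 6 were called lower, beside 1.95% of all genes. Avp, Oxt and Trh were not detected in any Olig2cre/cre tumour, and Pmch, Hcrt and Cartpt were each detected in 1. The filter thus admitted these 6 through the group in which they were higher. The 1 not called was Sst, somatostatin, which read 4.75, 9.85 and 11.20 in the Olig2cre/cre tumours against 10.62, 11.49 and 13.18 in the Olig2cre/+ tumours, with overlapping groups. For the other 6 neuropeptides Olig2cre/cre tumour 3 lay below every Olig2cre/+ tumour. The 9 astrocyte markers had means between -0.46 and 0.30 in the Olig2cre/cre tumours (summed intensity 51703 to 69189 in Olig2cre/cre tumours, 41557 to 52930.1 in Olig2cre/+ tumours), with 0 called. These means combined opposite directions, with 4 markers lower and 5 higher in the Olig2cre/cre tumours. The differences ran from -1.31 for Aqp4 to 1.63 for Gfap, both without overlap of the groups. The 7 measured endothelium markers of 9 had means between 1.20 and 1.99 in the Olig2cre/cre tumours (summed intensity 4542 to 8637 in Olig2cre/cre tumours, 1824 to 2593 in Olig2cre/+ tumours), and 4 were called higher, beside 2.83% of all genes. The 5 measured microglia or macrophage markers of 8 had means of 1.73, 0.19 and 0.00 in Olig2cre/cre tumours 1, 2 and 3 (summed intensity 5176 to 16036 in Olig2cre/cre tumours, 3903 to 6117 in Olig2cre/+ tumours), with 0 called. Their part in the release gene differences was not tested.

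**Figure D5:**
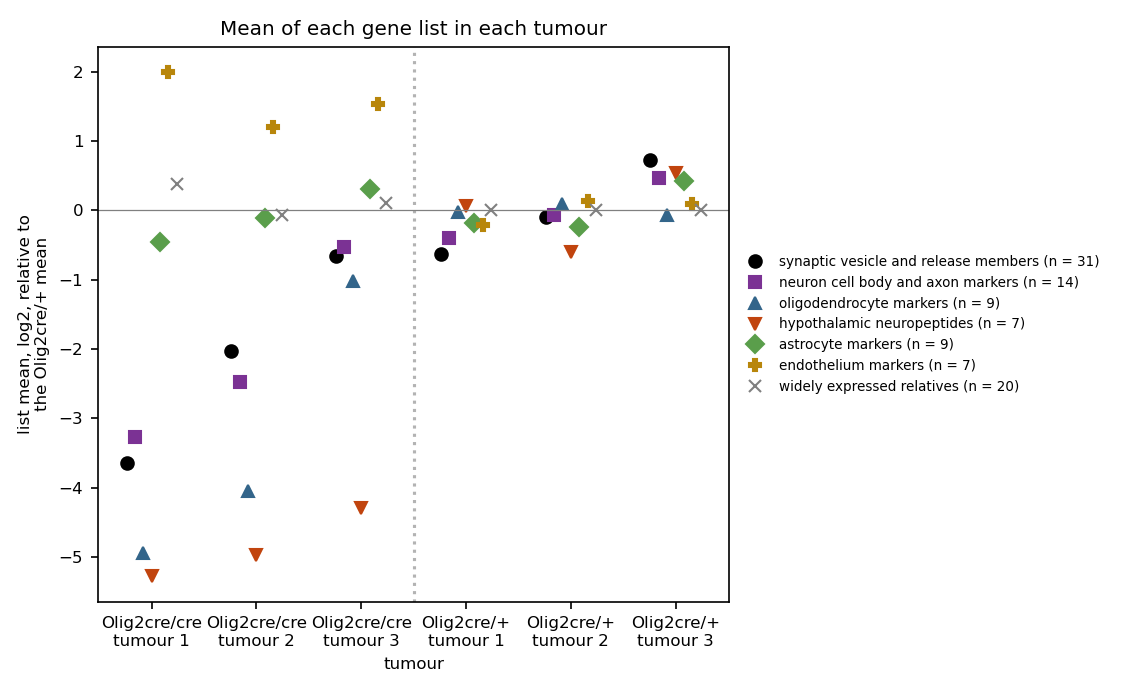
Mean log2 intensity of each gene list in each tumour, relative to its mean in the 3 Olig2cre/+ tumours (y axis), with 1 point per list and array and the number of genes in the legend. The release genes and the neuron cell body and axon markers lie near each other in all 6 tumours, while the neuropeptides lie at or below -4.30 in all 3 Olig2cre/cre tumours. Only 2, 1 and 2 of the 7 neuropeptides were detected in Olig2cre/cre tumours 1, 2 and 3.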

How the data were processed

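Transcripts were measured on an Illumina bead array in 6 brain tumours, 3 per genotype, grouped by the sample titles. The authors' first deposited table gives, for each probe and array, a detection p-value and an average signal, which is a linear intensity not normalized across arrays, per the file headers. A second table deposited by the authors holds intensity values that equal the quantile-normalized signals within 0.0471% at every probe, with arrays 1 and 3 exchanged in both groups; arrays are numbered here as in the first table. RNA was labelled as biotinylated cRNA, per the labels' protocols. The scanner software is not given in the sources used here.

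Signals were background-corrected by normexp with an offset of 16, quantile-normalized and put on the log2 scale (neqc, limma 3.58.1, R 4.3.3). The 14606 probes detected on at least 3 arrays were fitted with genotype as the only term (lmFit, eBayes, two-sided), with Benjamini-Hochberg adjustment over all of them. Probes were named from the platform annotation (23978 with 1 symbol, 0 with several, 1719 unnamed here), and 23962 were matched by gene ID to GRCm38.p6 symbols. The brightest tested probe stands for a gene. A probe absent from all arrays of a group by its detection p-value has only a bound there, computed against the lowest detected normalized signal of each array. The members, the wider list and the markers were chosen with earlier results of these data known. Named genes are all members, the wider list's calls and smallest p values, and the 2 brightest neuron markers. Mapt, Gfap, Aqp4, the neuropeptides, Dnajc6 and the relatives set beside members were chosen after their values were seen. The number of arrays limits the precision. Replicate numbers were not taken as pairs in the fit, although the labels give same-numbered tumours the same age. Alternatives are given in the closing section.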

Additional observations from a re-analysis of the deposited data

How the results depend on the processing

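The lower means of the 31 release genes kept their direction under all 14 other settings for 30 of the 31 genes, though only 23 of the 31 could be tested among probes detected on all 6 arrays. Cplx2 was the exception (0.45 with array weights, and -0.82 to 0.62 when 1 tumour was left out, positive without Olig2cre/cre tumour 1 or Olig2cre/+ tumour 3). Among their relatives, leaving out 1 tumour gave -0.38 to 0.058 for Napa and -0.015 to 0.49 for Vamp3. The median difference of the release genes was -1.52 without background correction and -1.52 on the values the authors normalized, -2.02 with cyclic loess, -1.82 with no detection filter, -2.31 among probes detected on all 6 arrays, and -2.94 to -1.39 when 1 tumour was left out. For the whole wider list, here with its widely expressed relatives (61 measured genes), the median was -0.39 in the fit reported. It was -0.52 to -0.24 when 1 tumour was left out. The number of release genes called was 0 in the fit reported. It was 17 with the replicate block, where 1382 of the 14606 tested probes were called in either direction. With array weights it was 5, where 1860 of the 14606 probes were called in either direction. All these release genes were lower. When 1 tumour was left out, the number of release genes called was 20 without Olig2cre/cre tumour 3 and 0 without any other tumour. The wider list, with 1 call, had 0 with no detection filter, 2 among probes detected on all 6 arrays, 2 with the mean of a gene's probes, 10 with the replicate block, 11 with array weights and 0 to 18 when 1 tumour was left out. Over the whole table, 645 probes were called, with 410 under no background correction, 411 on the authors' values, 230 with no detection filter, 1382 with the replicate block, 1860 with array weights and 9 to 1922 when 1 tumour was left out. The fewest were without Olig2cre/+ tumour 2 and the most without Olig2cre/cre tumour 3. The correlations of same-numbered tumours' deviations from their group means were 0.19, 0.02 and 0.30, and Olig2cre/cre tumour 2 correlated better with Olig2cre/+ tumour 1 (0.10), so the numbers were not taken as pairs, although the labels give same-numbered tumours the same age. The cause of these changes was not tested. Signals near background limit Snap91, Dnm1 and Unc13c.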
